A study of Mus musculus with 9 samples.

Results

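Gene expression was compared between mouse glioblastomas of 2 models, NG2-creERTM and Nestin-creERT2, across all genes. The 3 libraries labelled with each model, 6 of the 9 in the series, were chosen by that label alone and fitted without the 3 Synapsin-cre libraries. All were bulk RNA-seq libraries made from total RNA of tumour tissue, and all the animals had a mixed strain background. Both models carry a Cre recombinase fused to a modified oestrogen receptor, so that tamoxifen is needed for it to act. In Nestin-creERT2 animals the promoter is that of Nes, an intermediate filament gene of neural stem and progenitor cells. In NG2-creERTM animals it is that of Cspg4, the gene of the NG2 proteoglycan, which marks oligodendrocyte precursor cells and also pericytes of the vessel wall. The study set out to compare tumours begun in different cell types. Which alleles drive the tumours, when tamoxifen was given, where the tumours grew and how old or of which sex the animals were is not in the labels. They do not say that the 3 samples of a model came from separate animals, so p-values here measure the spread between samples, part of which may be technical.

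Oligodendrocyte precursor cells are the dividing glia of the adult brain. They share the transcription factor Sox10 with the neural crest, the embryonic population that gives rise outside the brain to Schwann cells, which wrap peripheral axons in myelin, and to melanocytes. Neural stem cells of the adult forebrain resemble astrocytes and depend on factors such as Sox9 and Lhx2. Growth factor receptors of the ErbB family act in both lineages: Egfr binds EGF-like ligands, whereas Erbb3 binds neuregulins and signals through its partner Erbb2.

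The 6 libraries held 33107271 to 41099967 counts in genes. Spearman correlations over genes were 0.936 to 0.942 within NG2-creERTM, 0.945 to 0.954 within Nestin-creERT2 and 0.881 to 0.917 between the models. Levels are given as CPM, which are counts relative to the library's total after adjustment by TMM factors, in the order of replicates 1, 2 and 3. Fold changes are log2 of NG2-creERTM over Nestin-creERT2, with the standard error (SE) after the ± sign. List members named without a call, and genes named outside the lists where this is said, were chosen after their values were seen. A few features set single libraries apart. Nestin-creERT2 replicate 1 held 5838 CPM of Ttr, the transthyretin gene that marks choroid plexus, against 1.11, 1.55 and 6.73 in the NG2-creERTM libraries and 2.35 and 3.89 in the other Nestin-creERT2 libraries. NG2-creERTM replicate 3 held 5842 CPM of Met, the hepatocyte growth factor receptor, whereas the other 5 libraries held 4.37 to 26.9. Xist, the RNA of the inactive X chromosome, was high in all Nestin-creERT2 libraries (797, 954 and 1824 CPM) and in NG2-creERTM replicate 2 (1323 CPM) and stood at 1.01 and 1.3 CPM in NG2-creERTM replicates 1 and 3. Ddx3y, a gene of the Y chromosome, was at 5.69, 0.0524 and 73.4 CPM in NG2-creERTM and at most 0.0721 in Nestin-creERT2, so NG2-creERTM replicate 1 was low in Xist with a Ddx3y level far under that of replicate 3. The part of these differences in the results was not tested.

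NG2-creERTM tumours had more RNA of Schwann cell, neural crest and melanocyte genes, of several collagens and other matrix genes, and of the neuregulin receptors Erbb3 and Erbb2. They had less RNA of neuronal, synaptic and astrocyte genes, and of Egfr. Of 17108 genes tested with edgeR's quasi-likelihood test, 237 (1.39%) passed a Benjamini-Hochberg adjusted p of 0.05. In NG2-creERTM, 54 of them (0.316% of genes tested) were higher and 183 (1.07%) were lower. None of the 237 had overlapping values between the 3 and 3 libraries, and adjusted p ran from 0.00812 to 0.0496. Protein-coding genes made up 50 of the 54 and 168 of the 183. The median absolute log2 fold change was 4.16 among higher and 3.35 among lower genes, while the median signed change over all genes was 0.01. Of the 54, 19 averaged under 1 CPM in Nestin-creERT2, and 61 of the 183 averaged under 1 CPM in NG2-creERTM. At an unadjusted p under 0.05, 1425 genes were higher and 1941 lower.

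**Figure D1:**
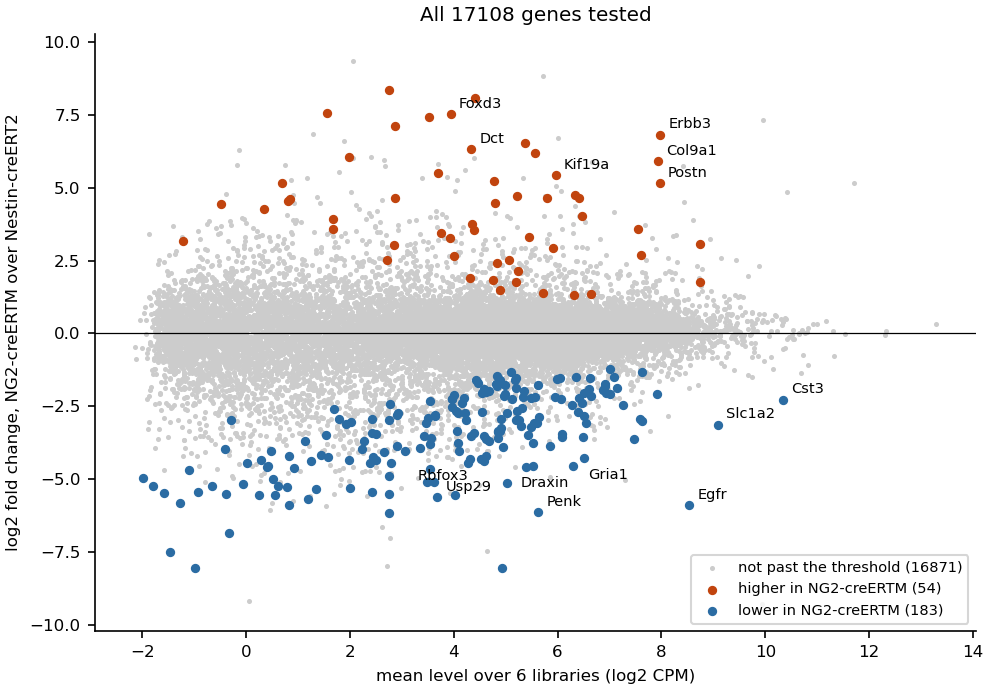
Each point is a gene, placed by its mean level over the 6 libraries (log2 CPM) and its log2 fold change of NG2-creERTM over Nestin-creERT2. The 54 genes called higher and 183 called lower are coloured, and the other 16871 genes tested are grey.

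These counts rested on having all 6 libraries and on fitting them alone. With the Synapsin-cre libraries in the fit, 0 of 17947 genes passed in edgeR (0%, lowest adjusted p 0.102). That fit gave a common biological coefficient of variation of 0.612 against 0.474 here, and 2021 genes had an unadjusted p under 0.05. With Synapsin-cre replicate 1 alone taken out of it, 124 of 18481 genes passed, of which 122 were among the 237. In fits without any Synapsin-cre library, leaving out Nestin-creERT2 replicate 1, 2 or 3 left 8, 1 and 3 calls. Leaving out NG2-creERTM replicate 1 left 11. Without NG2-creERTM replicate 2 there were 244 calls, of which 143 (58.6%) were higher rather than 22.8%, and 109 were among the 237. Without NG2-creERTM replicate 3, 187 genes were called and 91 were among the 237. All 237, which were chosen on these same libraries, kept their direction and an unadjusted p under 0.05 in each of these 6 smaller fits. Of the 237, 0 passed the adjusted threshold in all 6, and 11 passed it in at least 3.

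**Figure D2:**
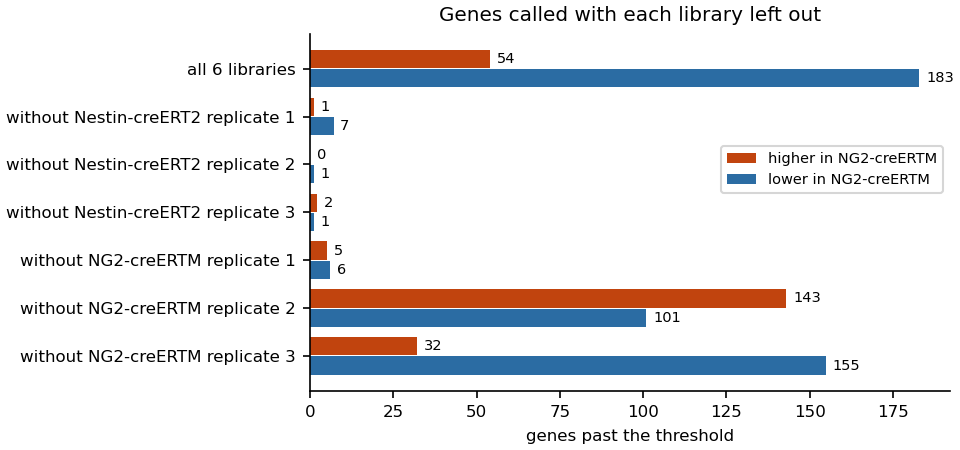
Bars give the number of genes past an adjusted p of 0.05, higher (orange) and lower (blue) in NG2-creERTM, with all 6 libraries and with each library left out. The totals fall to between 1 and 11 without any 1 of the Nestin-creERT2 libraries or NG2-creERTM replicate 1.

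The gene with the smallest p was Kif19a, a kinesin motor that shortens microtubules at the tips of cilia (chromosome 11, 114765388 to 114790739, plus strand, GRCm38). Its level was 105, 107 and 153 CPM in NG2-creERTM tumours and 2.47, 2.13 and 3.84 in Nestin-creERT2 tumours. All 3 NG2-creERTM values lay far above the highest Nestin-creERT2 value, and the log2 fold change was 5.43 ± 0.37 SE with an adjusted p of 0.00812. Kif19a passed in 5 of the 6 fits that left out a library. In the Synapsin-cre libraries its level was 6.82, 393 and 25.4 CPM, so a high value also occurred outside the NG2-creERTM model.

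Schwann cell and neural crest genes stood highest among the gene lists. Of 15 members tested, 14 had a positive fold change (50.9% of all genes did). On the higher side, 8 did not overlap (11% of all genes) and 5 passed (0.316% of all genes). The median log2 fold change was 2.94, against 0.01 for all genes, and it stayed between 2.32 and 4.27 when any library was left out. Summed over the list, NG2-creERTM libraries held 1298 to 3150 CPM and Nestin-creERT2 libraries 227 to 581. In bulk tissue, a change in the number of cells of a type and a change in RNA per cell cannot be told apart.

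Foxd3, a forkhead transcription factor of premigratory crest (chromosome 4, 99656299 to 99658622, plus strand), stood at 14.7, 18.2 and 58.5 CPM against 0.0602, 0.284 and 0.144 in Nestin-creERT2 tumours. Replicate 3 was the highest NG2-creERTM library, and each lay far above the other model. The log2 fold change was 7.52 ± 0.86 SE (adjusted p 0.0354). Dhh, the hedgehog ligand that Schwann cells secrete, was at 87.2, 16.7 and 143 CPM against 0.633, 0.199 and 1.78 (6.54 ± 1.06 SE on the log2 scale, adjusted p 0.0436). Replicate 2 was the lowest NG2-creERTM library for Erbb3, Dhh and Pmel. Tfap2a, a transcription factor that specifies the crest, was low in both models but separate, at 1.84, 1.57 and 3.53 CPM against 0.151, 0.0284 and 0.168 (log2 fold change 4.28 ± 0.76 SE, adjusted p 0.0463). In Synapsin-cre libraries Foxd3 was at 38.1, 25 and 72.7 CPM.

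Sox10 itself did not pass. Its level was nearly constant in NG2-creERTM tumours, at 1000, 967 and 953 CPM, and spread widely in Nestin-creERT2 tumours, at 26.4, 73.9 and 383 CPM. The groups did not overlap, but with that spread the log2 fold change of 2.60 ± 0.86 SE had an adjusted p of 0.15. Ngfr, the low-affinity neurotrophin receptor, was at 19.2, 10.8 and 127 CPM against 5.42, 2.04 and 1.61 (adjusted p 0.0778), and Gfra3, the artemin receptor, had an adjusted p of 0.0523. Egr2 and Prx, which mark myelinating Schwann cells, had log2 fold changes of 1.34 and 1.19 with overlapping values. Sostdc1 was the negative member (-1.24), and Tfap2b and Pmp2 were too low to test.

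Melanocyte genes gave a mixed picture. Dct, the dopachrome tautomerase of melanin synthesis, was at 14.1, 12.4 and 93.2 CPM against 0.361, 0.454 and 0.672, with a log2 fold change of 6.31 ± 0.97 SE (adjusted p 0.0397). Pmel, which forms the fibrils on which melanin is laid down, was at 167, 28.3 and 85.9 CPM against 0.452, 0.624 and 2.69 (6.20 ± 0.96 SE, adjusted p 0.0397). Both were higher in each NG2-creERTM library than in any Nestin-creERT2 library. Mitf, the lineage's master regulator, stood at 29.5, 17.6 and 27 CPM against 10.7, 5.19 and 10.3 without overlap but did not pass (adjusted p 0.0923). Tyr, Tyrp1, Mlana and Slc24a5, which define pigmented melanocytes, were too low to test in these libraries, and 6 of the 7 members tested were positive (median log2 fold change 1.50). Of the 7, 4 were higher without overlap and 2 passed. Across all genes, 50.9% were positive, 11% were higher without overlap and 0.316% were called higher.

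Promoters of these genes were read for the core motif of Sox proteins, ACAAAG or ACAATG on either strand, because Sox10 is a regulator that these lineages share. The windows are RefSeq promoters on GRCm38.p6, from 250 bases before to 50 bases after the start, written 5′ to 3′ on the gene's strand with motif matches in capitals. A match on the other strand reads CTTTGT or CATTGT. Of 32851 mouse promoters 28.6% hold a match. Among genes of the fixed lists that passed, 38 of 53 have a promoter in that table, and 10 of their 49 promoters (20.4%) hold a match. Shown are a higher gene with matches (Dct, chr14:118052197-118052496, minus strand), a higher gene without (Foxd3, chr4:99656049-99656348, plus strand) and a lower gene with matches (Draxin, chr4:148130649-148130948, minus strand).
Dct: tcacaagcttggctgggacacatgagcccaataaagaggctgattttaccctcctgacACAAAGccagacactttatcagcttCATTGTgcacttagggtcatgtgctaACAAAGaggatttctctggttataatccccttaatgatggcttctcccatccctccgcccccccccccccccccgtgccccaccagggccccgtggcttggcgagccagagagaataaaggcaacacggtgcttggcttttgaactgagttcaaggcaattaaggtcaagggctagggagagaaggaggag
Foxd3: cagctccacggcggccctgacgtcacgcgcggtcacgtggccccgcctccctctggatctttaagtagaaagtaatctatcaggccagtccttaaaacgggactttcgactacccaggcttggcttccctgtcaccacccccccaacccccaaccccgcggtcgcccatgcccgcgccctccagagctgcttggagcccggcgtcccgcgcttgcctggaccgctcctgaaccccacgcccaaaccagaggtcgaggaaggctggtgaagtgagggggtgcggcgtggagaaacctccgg
Draxin: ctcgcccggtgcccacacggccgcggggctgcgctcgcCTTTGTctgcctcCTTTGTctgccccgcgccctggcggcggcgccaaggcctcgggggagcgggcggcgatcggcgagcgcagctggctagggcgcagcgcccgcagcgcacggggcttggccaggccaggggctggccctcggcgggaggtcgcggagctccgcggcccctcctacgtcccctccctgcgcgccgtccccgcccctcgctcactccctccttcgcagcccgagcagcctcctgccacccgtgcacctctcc
The Dct window holds 3 matches, the Draxin window 2 and the Foxd3 window 0. Of the 7 Schwann cell and melanocyte members that passed, 4 have a promoter in the table and 1, Dct, holds a match. These are matches of letters and say nothing of binding.

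ErbB receptors moved in opposite directions. Erbb3 (chromosome 10, 128567523 to 128589652, minus strand) was at 458, 143 and 895 CPM in NG2-creERTM tumours and 2.92, 2.13 and 8.14 in Nestin-creERT2 tumours, a log2 fold change of 6.82 ± 0.90 SE (adjusted p 0.0354). Its partner Erbb2 was at 37.4, 20.3 and 25.2 CPM against 5.09, 3.74 and 4.35 (2.65 ± 0.37 SE, adjusted p 0.0388). Egfr (chromosome 11, 16752203 to 16918158, plus strand) was at 16.4, 15.8 and 4.8 CPM against 324, 197 and 1656, a log2 fold change of -5.88 ± 0.99 SE (adjusted p 0.0445). Nestin-creERT2 replicate 3 was the highest Egfr library, and without it the log2 fold change was -4.42 with an adjusted p of 0.0807. Without any other library its adjusted p was between 0.0644 and 0.119. Erbb4 and the ligands tested did not pass. Among ligands, Nrg3 stood at 0.738, 0.236 and 0.94 CPM against 3.71, 5.08 and 5.6 (adjusted p 0.0594) and Btc at 4.21, 1.62 and 25.1 against 1.05, 0.936 and 0.48 (adjusted p 0.104), both without overlap. In the Synapsin-cre libraries Erbb3 was at 79, 570.0 and 302 CPM and Egfr at 26, 2.01 and 4.57.

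Matrix genes were higher in NG2-creERTM. Of 34 collagens tested, 28 had a positive fold change, 18 were higher without overlap, 1 (Col8a2) was lower without overlap, and 4 passed. Of all genes, 50.9% had a positive fold change, 11% were higher and 14.3% lower without overlap, and 0.316% passed on the higher side. The median log2 fold change was 1.83, and 1.64 to 2.15 with any library left out. Summed collagen levels were 3824 to 15750 CPM in NG2-creERTM and 1028 to 2395 CPM in Nestin-creERT2.

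Col9a1, a chain of the cartilage collagen IX, was at 997, 335 and 106 CPM against 5.93, 7.4 and 10.5 (log2 fold change 5.91 ± 0.85 SE, adjusted p 0.0392). Its 3 NG2-creERTM values spread widely, with replicate 1 the highest and replicate 3 the lowest. Col15a1, a collagen of basement membranes, was at 163, 22.4 and 30.6 CPM against 2.83, 2.01 and 3.39 (4.71 ± 0.82 SE, adjusted p 0.0445), and the fibrillar Col3a1 was at 42.1, 29 and 88.1 against 4.31, 1.84 and 0.961 (4.49 ± 0.69 SE, adjusted p 0.0397). Col20a1, a collagen that associates with fibrils, completed the 4, at 39, 173 and 253 CPM against 6.05, 2.81 and 8.38. Chains of collagen IV, the network collagen of basement membranes, moved less: Col4a1 had a log2 fold change of 0.09 and Col4a2 of 0.37, with overlapping values.

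Fibroblast genes that passed were Postn (periostin), Mgp (matrix Gla protein) and Col3a1, 3 of 17 tested, and 14 of the 17 were positive. Among all genes, 0.316% were called higher and 50.9% were positive. Postn was at 578, 89 and 790.0 CPM against 19.9, 17.5 and 3.87 (5.14 ± 0.95 SE, adjusted p 0.0485). Mgp, an inhibitor of calcification, was at 95.4, 312 and 81.2 CPM against 9.37, 5.39 and 4.8 (4.64 ± 0.63 SE, adjusted p 0.0388). Dcn, a defining fibroblast gene, had a log2 fold change of 2.45 and did not pass (adjusted p 0.383). Summed over the list, NG2-creERTM libraries held 1261 to 3026 CPM and Nestin-creERT2 libraries 272 to 1294, so that the sums overlapped.

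Several other genes of collagen handling and cell attachment passed, of which Serpinh1 and Ctsk were picked after their values were seen. Serpinh1, the collagen chaperone HSP47, was at 432, 149 and 437 CPM against 42.2, 52.1 and 62.6 (2.70 ± 0.44 SE, adjusted p 0.0445). Ctsk, a collagen-degrading protease, was at 13.8, 6.55 and 18 against 2.11, 1.3 and 1.23 CPM. Itgb4, the integrin chain that binds laminin, was at 21.2, 14.4 and 38.7 against 2.92, 0.964 and 2.95 CPM (3.44 ± 0.60 SE, adjusted p 0.0445) and was the member that passed among 29 integrins and laminins. Of the 29, 7 were higher and 1 lower without overlap. Of all genes, 0.316% were called higher, and 11% were higher and 14.3% lower without overlap. Egflam, which encodes pikachurin, a matrix protein that binds dystroglycan, was at 84, 13.9 and 61.2 against 1.72, 1.22 and 1.32 CPM (5.22 ± 0.69 SE, adjusted p 0.0354).

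Vessel wall genes leaned the same way. Mcam, the CD146 adhesion molecule of pericytes and also of Schwann and melanocytic cells, was at 477, 94.6 and 458 CPM against 30.8, 16.3 and 39 (3.58 ± 0.65 SE, adjusted p 0.0466). It was the pericyte and smooth muscle member that passed, of 14 tested, 11 positive and 7 higher without overlap (median log2 fold change 1.70). Rgs5 and Pdgfrb, which define pericytes, were at 289.6, 221 and 75.1 against 53.2, 50.8 and 41.2 CPM and at 32.4, 36.7 and 21 against 17.4, 9.47 and 10.7 CPM, without overlap but with adjusted p of 0.0692 and 0.114. Of 17 endothelial genes, 13 were positive, 6 were higher without overlap and 0 passed (7 had an unadjusted p under 0.05). Across all genes, 50.9% were positive, 11% were higher without overlap and 0.316% were called higher. An unadjusted p under 0.05 was held by 3366 of the 17108 genes tested. Whether these tumours held more vessels was not tested.

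Other genes called higher have varied roles, and C4b, Arpc1b, Cdc20 and Hdac1 were picked among them after their values were seen. Wnt6, a Wnt ligand, was at 2.55, 1.62 and 5.62 CPM against 0.181, 0.0567 and 0.168 and was the 1 gene past the threshold among 31 tested in the Wnt pathway. Of those 31, 4 were higher and 6 lower without overlap, and 12 had an unadjusted p under 0.05. Of all genes, 0.316% were called higher, and 11% were higher and 14.3% lower without overlap. An unadjusted p under 0.05 was held by 3366 of all 17108 genes. C4b, a complement component, was at 572, 753 and 653 CPM against 193, 188 and 198 with little spread within either model (1.77 ± 0.26 SE, adjusted p 0.0397). Arpc1b, a subunit of the actin-branching Arp2/3 complex, was at 896, 295 and 1107 CPM against 140.2, 63.6 and 71.3. Cdc20, the activator of the anaphase-promoting complex, was at 159, 131 and 141 CPM against 64.5, 54 and 51.4 (1.34 ± 0.23 SE, adjusted p 0.0445). Hdac1, a histone deacetylase, was at 124, 96.2 and 121 CPM against 40.7, 41.2 and 53.4. Sytl2, a Rab27 effector in secretion, was at 109, 55.8 and 73.8 CPM against 12.8, 5.76 and 5.52. The carbonic anhydrase Car6 was at 17.4, 4.4 and 105 CPM against 0.12, 0.142 and 0.192 and had a fold change of 8.08 on the log2 scale. Clca3a1 and Clca3a2 also passed, but they are near-identical neighbours on chromosome 3 between which reads may be split, so their separate values are uncertain.

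**Figure D3:**
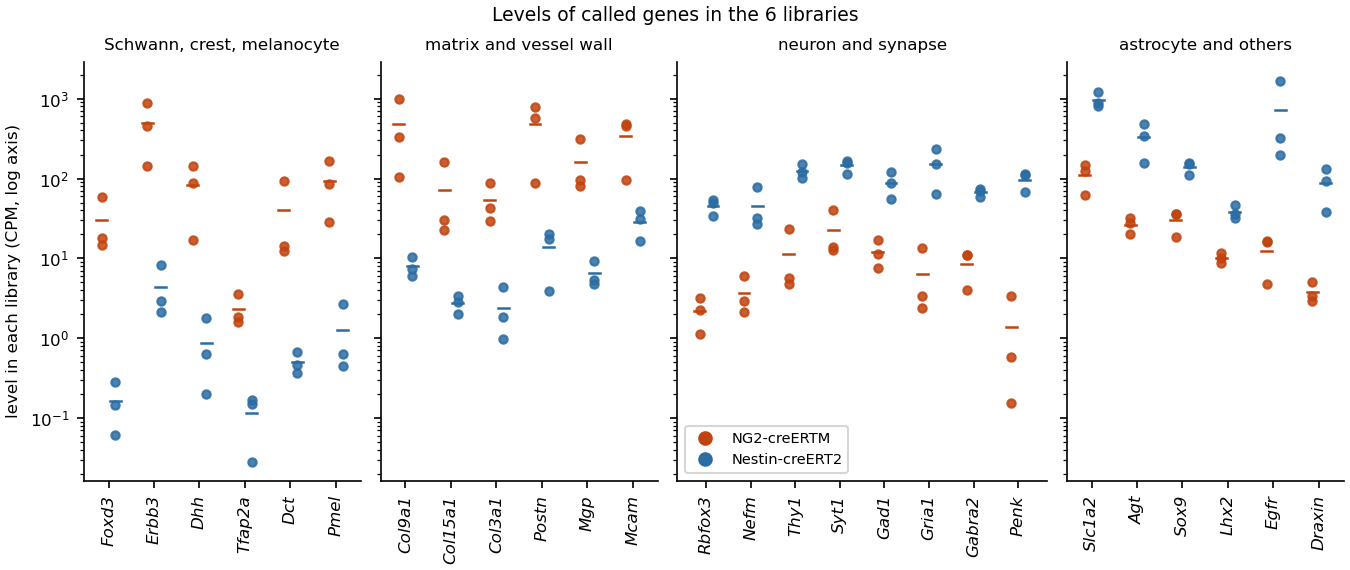
Points are CPM of called genes in each library on a log axis, orange for NG2-creERTM and blue for Nestin-creERT2, and short lines are means of 3. The models do not overlap for any gene drawn, and values within a model differ more for genes such as Dhh and Col9a1 than for Lhx2.

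Neuronal genes were lower in NG2-creERTM almost throughout. All 20 pan-neuronal members had a negative fold change (49.1% of all genes did), and 18 did not overlap (14.3% of all genes were lower without overlap). Among the 20, 6 passed, where 1.07% of all genes were called lower. Their median log2 fold change was -2.52, and -3.43 to -2.20 with any library left out. Summed levels were 876 to 1370 CPM in NG2-creERTM and 2655 to 3468 CPM in Nestin-creERT2. The amount of surrounding brain tissue in each sample was not measured, and its part in these differences was not tested.

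Rbfox3, the splicing factor known as NeuN, was at 1.14, 2.25 and 3.18 CPM against 49.8, 53.9 and 33.6 (log2 fold change -4.38 ± 0.47 SE, adjusted p 0.0354). The neurofilament chains Nefm and Nefh were at 2.12, 2.94 and 6.02 against 77.3, 31.6 and 26.8 CPM and 0.4, 0.629 and 1.02 against 10.2, 6.15 and 10.2 CPM, with log2 fold changes of -3.61 ± 0.59 SE and -3.69 ± 0.56 SE. Thy1, a surface glycoprotein of projection neurons, was at 5.72, 4.72 and 23.3 CPM against 120.5, 101 and 151 (-3.47 ± 0.64 SE, adjusted p 0.0485). NG2-creERTM replicate 3 held the most neuronal RNA of its model for each of these 4 genes. Elavl4, a neuronal RNA-binding protein, differed less, at 12.7, 19.3 and 16.9 against 54.3, 76.2 and 64.2 CPM (-1.99 ± 0.28 SE, adjusted p 0.0388). Tubb3 and Uchl1 overlapped, with log2 fold changes of -0.56 and -0.17.

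Both kinds of forebrain neuron were represented. Of 16 inhibitory neuron genes 15 were negative, 9 were lower without overlap, and Gad1 and Penk passed (median log2 fold change -2.56). Across all genes, 49.1% were negative, 14.3% were lower without overlap and 1.07% were called lower. Gad1, which makes GABA from glutamate, was at 7.63, 11.4 and 16.8 CPM against 119, 55.8 and 88.2 (-2.87 ± 0.41 SE, adjusted p 0.0388). Gad2 and the vesicular GABA transporter Slc32a1 had adjusted p of 0.0501 and 0.0501. Of 14 excitatory neuron genes 12 were negative, 8 were lower without overlap and 0 passed with edgeR, although 9 had an unadjusted p under 0.05. Their median was -2.46. An unadjusted p under 0.05 was held by 3366 of all 17108 genes tested. Neurod2 had a log2 fold change of -3.81 and the glutamate transporter Slc17a7 of -2.70.

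Genes of the synaptic release machinery were lower. Of 29 genes tested, 26 were negative, 22 were lower without overlap and 6 passed (median log2 fold change -1.52). The shares of all genes were 49.1% negative, 14.3% lower without overlap and 1.07% called lower. Syt1, the calcium sensor of fast release, was at 13.7, 12.6 and 40.8 CPM against 113, 157 and 167 (-2.71 ± 0.50 SE, adjusted p 0.0484). Cplx1, which clamps the fusion complex, was at 2.71, 15.4 and 13.4 CPM against 133, 138 and 102 (-3.56 ± 0.61 SE, adjusted p 0.0445). Unc13a, which primes vesicles, was at 1.63, 3.49 and 6.53 CPM against 89.5, 31.8 and 52.1 (-3.89 ± 0.61 SE). The Rab3 effector Rph3a and the GTPase Rab3c had log2 fold changes of -5.12 and -4.57. Postsynaptic scaffold genes outside the list, chosen after their values were seen, passed too: Shank1 was at 13, 8.52 and 14.7 CPM against 68.1, 39.5 and 65.6, and Dlgap3 at 18.1, 8.94 and 7.5 against 73.6, 45.3 and 86.2.

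Receptors for GABA and glycine were lower as a group. All 17 tested were negative, 13 without overlap, and 4 passed, with a median log2 fold change of -2.42. For all genes the shares were 49.1% negative, 14.3% lower without overlap and 1.07% called lower. Gabra2 was at 10.9, 3.96 and 10.9 CPM against 70.2, 73.4 and 59.3 (-2.98 ± 0.42 SE, adjusted p 0.0388). Gabra5, another alpha subunit of the GABA-A receptor, was at 0.308, 0.236 and 0.788 CPM against 16.5, 7.26 and 5.91 (-4.46 ± 0.72 SE, adjusted p 0.0436). Gabbr2, a subunit of the metabotropic GABA-B receptor, was at 3.54, 11.1 and 11.3 CPM against 64.7, 85.2 and 92.5 (-3.22 ± 0.47 SE). The glycine receptor subunit Glra2 was at 0.0308, 0.419 and 0.381 CPM against 21.3, 12.5 and 5.45 (-5.53 ± 0.94 SE).

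Glutamate receptors were less uniform. Of 27 receptors and partners 25 were negative and 13 were lower without overlap, but the median was -1.24 and 3 passed. Among all genes, 49.1% were negative, 14.3% were lower without overlap and 1.07% were called lower. Gria1, an AMPA receptor subunit, was at 3.38, 2.41 and 13.4 CPM against 237, 154 and 63.5 (-4.56 ± 0.80 SE, adjusted p 0.0447). Grin2c, an NMDA receptor subunit, and Cnih2, an AMPA receptor auxiliary protein, had log2 fold changes of -4.02 ± 0.71 SE and -2.68 ± 0.47 SE. Grik2 and Gria3 overlapped, with log2 fold changes of -0.01 and 0.46.

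Ion channel genes showed the same direction. For comparison, 49.1% of all genes were negative, 14.3% were lower without overlap and 1.07% were called lower. Among sodium and calcium channels 22 of 24 were negative, 16 without overlap (median -1.48), and the calcium channel subunits Cacnb2 and Cacna2d3 passed. Cacnb2 was at 1.45, 2.86 and 1.3 CPM against 13.9, 9.9 and 15.5 (-2.81 ± 0.49 SE). Among 37 potassium channel genes 28 were negative and 18 were lower without overlap (median -1.32), and Kcnd3, Kcnip2 and Kcnn2 passed. Kcnd3, the A-type channel Kv4.3, was at 41.7, 50.8 and 69.3 CPM against 180.1, 238 and 145, and Kcnip2, which binds Kv4 channels, at 1.45, 2.02 and 1.04 against 9.28, 10.1 and 16. Kcnn4 went the other way with a log2 fold change of 4.88 (adjusted p 0.0633).

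Neuropeptide genes had the most negative median of the neuronal lists, -2.87 (-3.91 to -2.43 with any library left out). Of 24 tested 23 were negative, 17 without overlap, and 3 passed. Shares over all genes were 49.1% negative, 14.3% lower without overlap and 1.07% called lower. Penk, the enkephalin precursor, was at 0.154, 0.577 and 3.38 CPM against 67, 113 and 111 (-6.13 ± 1.02 SE, adjusted p 0.0445). Pnoc, the nociceptin precursor, was at 0.154, 0.0262 and 0.178 CPM against 7.8, 3.26 and 3.63 (-5.32 ± 0.81 SE). Chgb, a granin of secretory vesicles, was at 8.3, 8.41 and 13.2 CPM against 134, 49.5 and 67.5 (-3.07 ± 0.44 SE). NG2-creERTM values of Penk spread widely, with replicate 3 the highest, and all were far under the lowest Nestin-creERT2 value.

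A calcium pump and modulatory receptors outside the lists, named after their values were seen, were also among the genes that passed. Atp2b2, a plasma membrane calcium pump, was at 2.46, 5.69 and 7.62 CPM against 58.4, 31.6 and 73 (-3.37 ± 0.51 SE). Adcyap1r1, the PACAP receptor, which glia also express, was at 36.8, 43.1 and 53.6 CPM against 196, 303 and 522 (-2.94 ± 0.40 SE, adjusted p 0.0388). The serotonin receptor Htr6 and the adrenergic receptor Adra1a were at 0.369, 0.21 and 0.33 against 5.81, 2.27 and 3.82 CPM and 1.11, 0.524 and 1.19 against 9.25, 10.6 and 10.8 CPM.

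**Figure D4:**
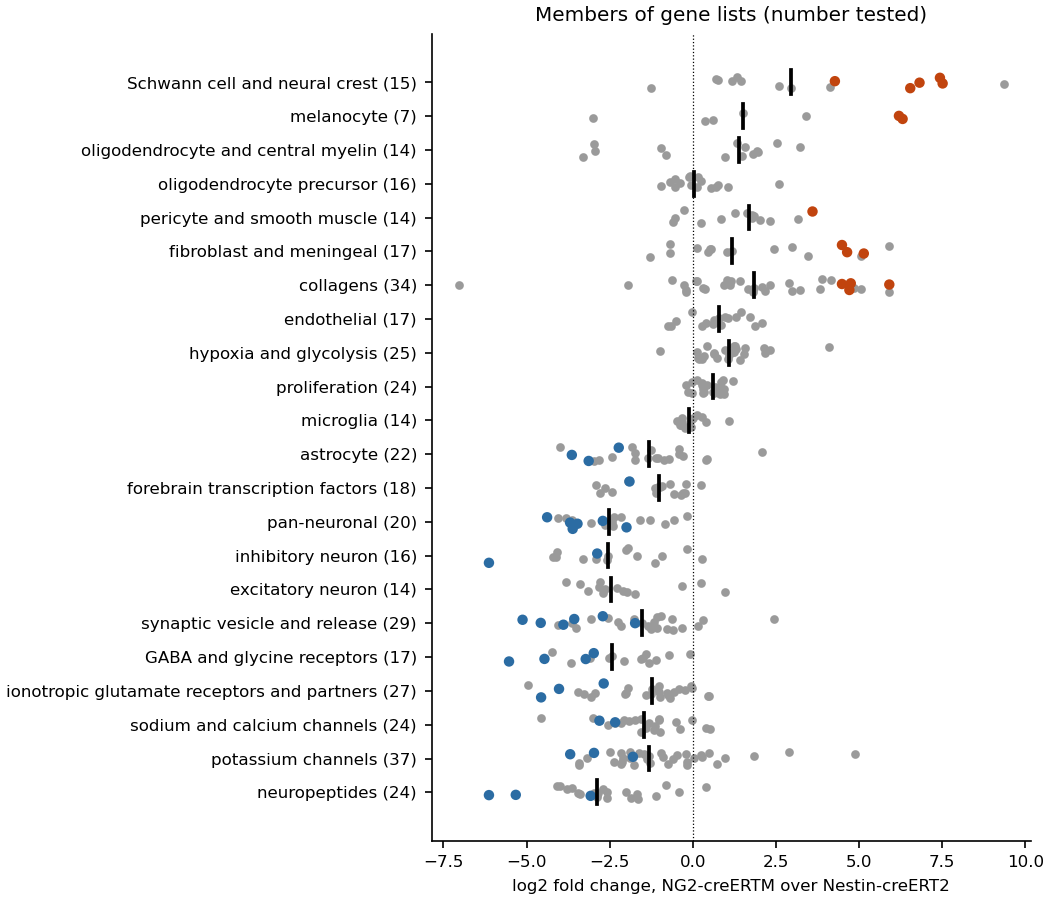
Points are log2 fold changes of NG2-creERTM over Nestin-creERT2 for the tested members of 22 gene lists, coloured where the gene passed an adjusted p of 0.05. Black bars are list medians, from 2.94 (Schwann cell and neural crest) to -2.87 (neuropeptides), and the dotted line is the median of all genes.

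Astrocyte genes were lower, though not all of them. Of 22 tested 19 were negative, 11 were lower without overlap and 3 passed (median log2 fold change -1.30). Across all genes, 49.1% were negative, 14.3% were lower without overlap and 1.07% were called lower. Slc1a2, the glutamate transporter GLT-1, was at 62.5, 146 and 125 CPM against 812, 885 and 1224 (-3.13 ± 0.41 SE, adjusted p 0.0354). Agt, angiotensinogen, was at 31.6, 20.4 and 27.4 CPM against 155, 345 and 488 (-3.64 ± 0.46 SE, adjusted p 0.0354). The transcription factor Sox9 was at 35.7, 35.5 and 18.7 CPM against 155, 154 and 112 (-2.23 ± 0.33 SE, adjusted p 0.0397). Aqp4, the water channel of astrocyte endfeet, had no overlap (14, 66.5 and 127 against 404, 520.4 and 545 CPM) and an adjusted p of 0.0765. Gfap overlapped, at 321, 2020 and 443 CPM against 2489, 3168 and 1404, and Slc1a3 had a log2 fold change of 0.43. S100b was higher without overlap, at 473, 450.1 and 375 CPM against 41.5, 23.8 and 240.1, and did not pass. Cst3, the cystatin C gene, which astrocytes and microglia express, lies outside the list and was picked after its values were seen. It was at 451, 544 and 338 CPM against 1650, 2343 and 2447 (-2.27 ± 0.35 SE, adjusted p 0.0397).

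Some patterning and guidance genes passed on the lower side. Lhx2, a LIM homeodomain factor of the forebrain (chromosome 2, 38339281 to 38369733, plus strand), was at 9.97, 11.6 and 8.64 CPM against 31.7, 35.6 and 45.9 (-1.90 ± 0.30 SE, adjusted p 0.0397). It was the 1 forebrain transcription factor that passed, although 17 of 18 were negative (49.1% of all genes were, and 1.07% were called lower). The median of -1.02 was -1.804 without NG2-creERTM replicate 2, -0.576 without replicate 1 and -0.612 without replicate 3 of that model. Draxin, a secreted axon repellent that antagonises Wnt signalling, was at 2.92, 5.01 and 3.33 CPM against 38.4, 92.3 and 133 (-4.55 ± 0.52 SE, adjusted p 0.0354). Unc5d, a netrin receptor, was at 1.54, 0.315 and 1.02 CPM against 7.38, 16.5 and 17.6 (-3.85 ± 0.70 SE), and these 2 were the members that passed among 56 axon guidance genes (34 negative). Of the 56, 7 were higher and 14 lower without overlap, against 11% and 14.3% of all genes. An unadjusted p under 0.05 was held by 24 of the 56 and by 3366 of all 17108 genes tested. The axon guidance median of -0.51 was -0.174 without Nestin-creERT2 replicate 3 and -0.735 to -0.357 without any other library. Lfng, which modifies Notch receptors, was at 13.1, 24.8 and 28.6 CPM against 77.7, 80.3 and 70 (-1.77 ± 0.33 SE), and no other of 18 Notch pathway genes passed. In the Synapsin-cre libraries Draxin was at 2.12, 5.85 and 2.65 CPM.

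A pair of genes of motile cilia also passed on the lower side, whereas the ciliary kinesin Kif19a, above, was higher. Hydin, a protein of the central microtubule pair, was at 0.0615, 0.157 and 0.0254 CPM against 3.04, 7.91 and 2.26 (-5.70 ± 0.89 SE, adjusted p 0.041). Ccdc114, which docks dynein arms and was picked after its values were seen, was at 0.861, 1.78 and 2.52 CPM against 16.5, 21.7 and 20.7 (-3.51 ± 0.50 SE, adjusted p 0.0388). The ependymal list, which includes the ciliary genes Foxj1 and Cfap126, gave 0 calls among 4 genes tested with edgeR (0 at an unadjusted p under 0.05), all with overlapping values. Choroid plexus genes had a median log2 fold change of -4.77 with 0 calls and 5 of 9 at an unadjusted p under 0.05. That median rested on Nestin-creERT2 replicate 1, which held 8362 CPM of the list against 115 and 364 in the other Nestin-creERT2 libraries, and it was 0.457 without that library. Neither Hydin nor Ccdc114 was highest in that replicate.

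Genes expressed from 1 parental copy (imprinted genes), looked up after Peg3, Meg3 and H19 were seen among the calls, leaned lower. Of 26 tested 17 were negative, 10 were lower and 2 higher without overlap, and the median log2 fold change was -0.67. Of all genes 49.1% were negative, 14.3% lower and 11% higher without overlap. The counts include the called genes that prompted the lookup, so they are a description. Peg3, a paternally expressed zinc finger gene, was at 60.5, 29.5 and 51.5 CPM against 307, 197 and 268 (-2.45 ± 0.34 SE, adjusted p 0.0388). Its neighbour Usp29, in the same imprinted domain of chromosome 7, was at 0.246, 0.288 and 0.965 CPM against 32.8, 21.9 and 20.5 (-5.63 ± 0.66 SE, adjusted p 0.0354). Meg3, a maternally expressed long non-coding RNA, was at 38.1, 58.1 and 46.6 CPM against 139, 159 and 289 (-2.04 ± 0.35 SE, adjusted p 0.0445). H19, another maternally expressed RNA, was higher, at 47, 234 and 39.1 CPM against 2.89, 5.7 and 4.06 (4.66 ± 0.78 SE, adjusted p 0.0445), while Igf2 beside it had a log2 fold change of -0.68 with overlap. Parental alleles were not distinguished in these counts.

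Lower calls were unevenly spread over chromosomes, a pattern examined after it was seen. Chromosome 2 held 36 of the 183 genes called lower (19.7%) but 7.77% of the genes tested, and 6 of the 36 belonged to a fixed list. Of its 1329 tested genes, 585 (44%) were lower without overlap, against 14.3% of all genes. Among genes whose mean log2 CPM was 3 or more, 799 of 907 on chromosome 2 had a negative fold change (88.1%), and their median log2 fold change was -0.547. The shift ran the length of the chromosome: all 13 windows of 15 Mb had a negative median, from -0.608 to -0.313.

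By library, the median log2 level of chromosome 2 genes, relative to the mean of the 6 libraries, was 0.253, 0.36 and 0.235 in Nestin-creERT2 and -0.424, -0.312 and -0.0791 in NG2-creERTM. NG2-creERTM replicate 3 lay nearest to the other model. Leaving out genes that were called or belonged to a list gave a median of -0.539 over 828 genes. Snph, Slc1a2, Gad1, Chgb, Lhx2 and Cst3 are among the genes called lower that lie on this chromosome.

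Chromosome 15 showed the reverse. Its median log2 fold change was 0.643 over 479 genes, 85% of them positive, with all 6 windows positive and 243 of 652 tested genes (37.3%) higher without overlap, against 11% of all genes. Library medians were 0.501, 0.272 and 0.197 in NG2-creERTM and -0.112, -0.604 and -0.226 in Nestin-creERT2. Sox10 lies on chromosome 15, as do Dhh and Egflam, and its fold change is given above without any allowance for this shift.

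Library medians did not overlap for 5 of 20 chromosomes, 2 higher (1 and 15) and 3 lower (2, 9 and 19). The medians of chromosomes 1, 9 and 19 were 0.205, -0.23 and -0.376. With 3 against 3 libraries the smallest 2-sided exact permutation p is 0.1, which all 5 reached, and the value adjusted over 20 chromosomes was 0.4. Each list's median was also taken after removing the median of each gene's chromosome. The Schwann cell and neural crest median went from 2.94 to 2.74, the pan-neuronal median from -2.52 to -2.55 and the collagen median from 1.83 to 1.71. Some others moved by more than these 3. Among them, the forebrain transcription factor median went from -1.02 to -0.579, the melanocyte median from 1.50 to 1.21 and the radial glia median from -0.623 to -0.379. The macrophage median went from 0.329 to 0.148 and the oxidative phosphorylation median from 0.268 to 0.116. Among lists with medians near 0, the oligodendrocyte precursor median went from 0.0275 to -0.0287, the glioma panel median from 0.06 to 0.186 and the microglia median from -0.109 to -0.188. DNA copy number was not measured in these samples, and its part in the shifts was not tested.

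**Figure D5:**
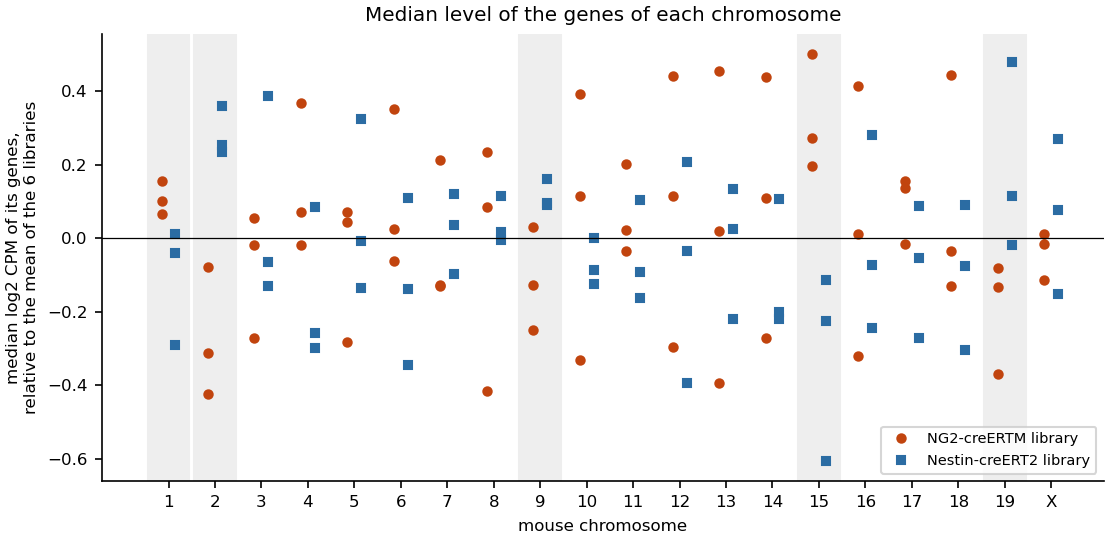
Orange circles (NG2-creERTM) and blue squares (Nestin-creERT2) are the median log2 CPM of the genes of each chromosome in each library, relative to the mean of the 6 libraries, for genes whose mean log2 CPM was 3 or more. Grey bands mark the 5 chromosomes on which the 3 NG2-creERTM and 3 Nestin-creERT2 libraries do not overlap.

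Among the genes that name the models and the commonly altered glioma genes, Egfr alone passed. Of 20 panel genes tested, 12 were positive and 8 negative, with a median log2 fold change of 0.06 that turned to -0.001, -0.034 and -0.121 without Nestin-creERT2 replicate 2, NG2-creERTM replicate 1 and NG2-creERTM replicate 3. Syn1 (synapsin), Rb1 and Id1 were lower without overlap, with log2 fold changes of -2.17, -0.59 and -0.80 and adjusted p of 0.0677, 0.223 and 0.165. Across all genes, 14.3% were lower without overlap and 1.07% were called lower. Cspg4, whose promoter drives NG2-creERTM, was at 984, 289.7 and 251 CPM against 117, 141 and 638, and Nes, whose promoter drives Nestin-creERT2, was at 356, 295 and 705 against 504, 488 and 351. Their log2 fold changes were 0.77 ± 0.77 SE and 0.01 ± 0.38 SE, both with overlapping values. Pdgfra, the PDGF receptor of oligodendrocyte precursors, had a log2 fold change of -0.08 ± 0.69 SE and Olig2 of -0.53 ± 0.51 SE. Nf1 and Trp53 had log2 fold changes of 0.28 ± 0.35 SE and 0.57 ± 0.33 SE, with overlapping values. The oligodendrocyte precursor list had a median of 0.03, with 8 of 16 members positive and 0 called (1 at an unadjusted p under 0.05). That median was -0.346 to 0.568 with any library left out, and negative without Nestin-creERT2 replicate 1, Nestin-creERT2 replicate 2 or NG2-creERTM replicate 1.

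Myelin genes of the central nervous system split. Mbp, which peripheral myelin shares, was at 1192, 894 and 1778 against 397, 112 and 486 CPM. Mobp, which is restricted to central myelin, was at 24.1, 20.7 and 12.3 against 293, 30.4 and 241 CPM. Neither overlapped or passed, with adjusted p of 0.107 and 0.0674, and of the 14 genes on that list 9 were positive.

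Hypoxia and glycolysis genes were positive in 24 of 25 members, with a median log2 fold change of 1.10 (0.83 to 1.50 with any library left out), 6 higher without overlap and 0 past the threshold (10 at an unadjusted p under 0.05). Vegfa, the vascular growth factor, was at 692, 612 and 72.5 CPM against 156, 80.4 and 76.5, so NG2-creERTM replicate 3 was as low as Nestin-creERT2. Car9, a carbonic anhydrase induced by hypoxia, was at 19.8, 54.3 and 2.64 CPM against 3.1, 1.11 and 0.288, and there too NG2-creERTM replicate 3 was the lowest of its model. Proliferation genes were positive in 20 of 24 members with a median of 0.62, 8 higher without overlap and 0 past the threshold (9 at an unadjusted p under 0.05). Across all genes, 50.9% were positive, 11% were higher without overlap and 3366 of 17108 had an unadjusted p under 0.05. Mcm3, of the replicative helicase, was at 254, 215 and 216 CPM against 128, 94.3 and 75.8 (adjusted p 0.0651), and Mki67 overlapped at 639, 593 and 484 against 433, 603 and 350.1.

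None of the 14 microglia, 13 macrophage and 3 T and NK cell genes tested passed with edgeR (1 had an unadjusted p under 0.05), which is no result about them where 1.39% of all genes passed. The microglia list had a median log2 fold change of -0.11 with 0 of 14 members separate between models, where 25.3% of all genes were separate. It summed to 549 to 721 CPM in NG2-creERTM and 630 to 679 CPM in Nestin-creERT2. The macrophage list summed to 1871 to 3509 CPM against 3699 to 4523 CPM. Its median of 0.33 was 0.027 to 0.679 with any library left out, and under 0.05 without Nestin-creERT2 replicate 3, NG2-creERTM replicate 2 or NG2-creERTM replicate 3. Most of that sum was Apoe, a lipid carrier that astrocytes also make, at 978, 2203 and 2452 CPM against 2027, 3801 and 3871. Gpnmb, a lysosomal glycoprotein, was the 1 macrophage member of 13 without overlap, at 562, 292 and 303 CPM against 153, 140.1 and 32.3 (adjusted p 0.134). Among all genes, 11% were higher without overlap. T and NK cell markers summed to at most 7.54 CPM, and the defining Cd3e, Cd3d and Cd8a were too low to test.

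A few further lists separated in part of their members without a call. Nuclear genes of oxidative phosphorylation were higher without overlap in 7 of 18, with a median log2 fold change of 0.27 and 2 at an unadjusted p under 0.05. Connexins and pannexins, which form gap junctions and related channels, were higher without overlap in 2 and lower in 5 of 12, with a median of -1.26 and 7 at an unadjusted p under 0.05. Of all genes 11% were higher and 14.3% lower without overlap. Gjb6, an astrocyte connexin, was at 0.246, 0.603 and 2.77 CPM against 16.8, 22.9 and 18.2 (adjusted p 0.058). Immediate-early genes, which respond to stimulation and also to tissue handling, were positive in 14 of 19, with 4 higher without overlap. The chemokine list had a median of -0.44 that became 0.383 without Nestin-creERT2 replicate 1 and 0.034 without Nestin-creERT2 replicate 2. The Hox list had one of -0.36 that became 0.672 without Nestin-creERT2 replicate 2 and 0.133 without NG2-creERTM replicate 3.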

How the data were processed

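Whole-tumour RNA was sequenced in 9 libraries, of which the 3 NG2-creERTM and 3 Nestin-creERT2 libraries were compared, grouped by the model given in the labels. The authors deposited whole-number read counts per gene for each library, in an unstranded and 2 stranded columns. STAR, HTSeq and the mm10 build are named in the submitters' processing notes, without versions or roles; the annotation release is not given in the sources used here. The reverse-strand column was used, since the opposite strand held 3.25 to 3.51% of stranded counts in genes. The 4 summary lines per library, 17.9 to 24.0% of all counts, were left out. Of 46517 identifiers, 46005 matched GENCODE vM21 on GRCm38, which gave symbols and positions, and 512 did not.

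Genes passing edgeR's expression filter (17108) were fitted with edgeR 4.0.16 in R 4.3.3 (TMM factors, quasi-likelihood F-test, 4 residual degrees of freedom), and p-values were adjusted by Benjamini-Hochberg over all of them with a threshold of 0.05. The standard error is the absolute log2 fold change divided by the root of F. Sums and levels in CPM use the TMM factors. On simulated counts for the 17108 genes, with 100 genes changed 4-fold and 100 changed 16-fold, the test recovered 49% and 94%, with 11 false among 154 calls. The changed genes were drawn from those whose mean CPM had a log2 of 1 or more, and no other gene was changed. DESeq2 1.42.0 recovered 75% and 98%, with 95 false among 268 calls.

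The comparison and the gene lists were chosen with earlier results of these data known. Named genes, leaving out predicted genes, pseudogenes, immune receptor segments and sex-linked genes, are the 15 largest changes in each direction among calls without overlap and a mean log2 CPM of 1 or more, the 10 smallest p in each direction, called members of the lists, up to 3 members of smallest p in a list without calls, and the glioma panel. Not all of them are described, and a few are not reported here. Alternatives were other size factors, filters, tools and strands, the fit with all 9 libraries, and leaving out each library. Promoter sequences are RefSeq's on GRCm38.p6.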

Additional observations from a re-analysis of the deposited data

How the results depend on the processing

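The direction of all 237 calls was the same in each alternative that tested them, while the number past the threshold moved. With upper quartile factors 375 genes passed (89 higher, 286 lower), with a filter of 1 CPM in 3 libraries 380 (94 and 286), with no filter 936 (291 and 645), with limma voom 426 (71 and 355), with voom sample weights 384 (71 and 313) and with DESeq2 1889 (770 and 1119). DESeq2 placed 40.76% of its calls higher, against 22.8%, and in the simulation it made the most false calls. RLE factors gave 222, robust fitting 210 and unstranded counts 296. With all 9 libraries 0 passed (0 higher, 0 lower, 0 list members against 53), and 197 of the 237 kept an unadjusted p under 0.05. Without Synapsin-cre replicate 1 the 8 libraries gave 124 (32 and 92), of which 122 were among the 237. Leaving out each library gave 1 to 244 calls (1 to 11 in the 4 fits that lost most), 0 to 143 higher (0 to 32 where lower than 54), 1 to 155 lower (1 to 101 in the 5 fits that moved it most) and 0 to 56 list members (0 to 5 in those 4). Fewer samples were fitted in those cases; the cause of the differences between them was not tested. The medians of chromosomes 2, 15 and 19 kept their sign, from -0.642 to -0.474, 0.491 to 0.761 and -0.487 to -0.237, under alternatives chosen after seeing the data. No paired analysis was possible because the replicate numbers 1 to 3 only name the samples in order of accession, and the labels give no numbers that tie a sample of one model to a sample of the other. At 3 libraries a model, the simulation recovered 49% of 4-fold changes, so smaller differences were mostly not detectable.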
